A study of Arabidopsis thaliana with 9 samples.

Results

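The genes described here had their lowest mRNA levels in siliques of plants heterozygous for the ago3-3 allele of ARGONAUTE 3 (AGO3), below both homozygous mutant and wild-type siliques. They were chosen by these mRNA levels themselves. A gene was taken when its mean over the 6 mRNA libraries was at least 5 CPM (counts scaled to 1000000 per library), when both heterozygous values lay below all 4 homozygous and wild-type values, and when the mean of those 4 was at least 1.5 times the heterozygous mean. Of 34262 rows in the table, 15970 met the mean and 30 met all conditions, which is 0.188% of the 15970. Both heterozygous values were the lowest, whatever the ratio, in 697 genes (4.36%).

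The 6 mRNA libraries came from siliques of Columbia-0 plants, the fruits that enclose the developing seeds, harvested between 1 and 5 days after pollination. The 3 genotypes sampled were wild type and plants with the ago3-3 allele on 1 or on both copies of the gene, each with 2 libraries that the series design text calls biological samples. The labels of both mutant groups give only the allele, so the zygosity was read from the sample titles and the design text, and neither says how the flowers were pollinated. Small RNA was sequenced in 1 library each from an AGO3 immunoprecipitate of ago3-3 plants carrying pAGO3:FHA-AGO3, a control immunoprecipitate with FLAG antibody from wild type, and total small RNA of wild type. These 3 libraries were also from siliques harvested between 1 and 5 days after pollination.

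ARGONAUTE proteins carry small RNAs, which direct them by base pairing to target transcripts or chromatin. Several of the 30 genes act at the cell surface. Wall-associated kinases span the plasma membrane and bind pectin of the cell wall. Salicylic acid is a hormone of pathogen defence, and WAK1 and PCC1 are known to respond to it in leaves.

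AGO3 itself was not among the 30 genes, and its level followed the genotype labels. In homozygous libraries it stood at 2.19 and 3.36 CPM, in heterozygous libraries at 12.3 and 12.4 CPM and in wild-type libraries at 31.0 and 16.3 CPM (here and below, a pair of values is replicate 1 and replicate 2). On the first principal component of log2(CPM + 1), with 44.7% of the variance, homozygous replicate 2 (18.5) and wild type replicate 1 (31.7) stood apart, with the other 4 from -13.3 to -12.3. The share of structural RNA was 8.13% in wild type replicate 2 and 3.04% to 5.78% in the other 5 libraries. Markers of silique wall, seed coat, endosperm, embryo, pollen, stamen and petal, and green tissue were detected, but not every marker was. The endosperm marker IKU2 stood at 0 to 0.290 CPM, and the pollen marker VEX1 was matched to no row. In none of these 7 lists did both heterozygous sums lie below, or both above, all other 4. The summed pollen markers, for example, stood at 102 and 167 CPM in heterozygous and between 56.3 and 149.9 CPM in the other libraries. MUM4, which makes a precursor of seed coat mucilage, stood at 199 CPM in homozygous replicate 2 and 139 CPM in wild type replicate 1, and at 346 to 401 CPM in the other 4 libraries. On the first component both heterozygous libraries lay with homozygous replicate 1 and wild type replicate 2, so ratios against those 2 libraries alone are also given. In whole siliques, fewer cells of a type and less RNA per cell cannot be told apart.

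The rule chose the genes from these same values, so the levels and ratios to heterozygous siliques are given as description, with no test. The ratio of the 4-library mean to the heterozygous mean ran from 1.5 to 5.12, with a median of 1.63. It was at least 2 in 9 genes and under 1.6 in 13. Against homozygous replicate 1 and wild type replicate 2 alone the median ratio was 1.39, and 9 genes had a ratio of at least 1.5.

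**Figure D1:**
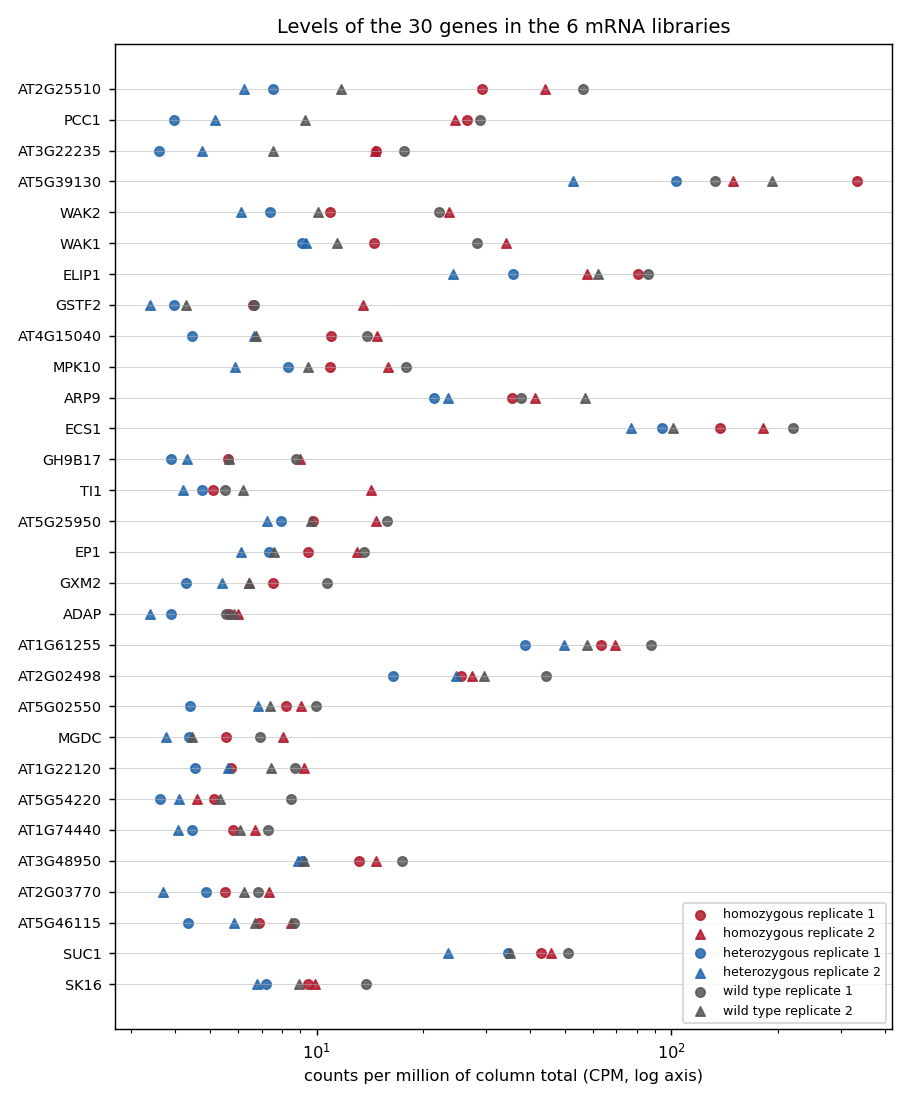
Level of each of the 30 genes (rows, ordered by ratio) in the 6 mRNA libraries, in CPM on a log axis; colour gives the genotype and symbol the replicate. Both heterozygous points lie to the left of the other 4 by choice of the genes; the nearest other point is wild type replicate 2 in 19 of the 30.

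The genes are taken in order of what they encode, an order made after they were chosen and not a test of any theme. PCC1 (PATHOGEN AND CIRCADIAN CONTROLLED 1), which encodes a small membrane protein and responds to pathogens and salicylic acid, stood at 3.96 and 5.18 CPM in heterozygous siliques, against 26.6 and 24.5 CPM in the homozygous and 28.8 and 9.26 CPM in the wild-type ones. Its 4-library mean was 4.87 times the heterozygous mean, and 3.92 times with the 2 libraries alone. Wild type replicate 2 was the lowest of the other 4 libraries, at 1.79 times the higher heterozygous value. AT3G22235, the next gene on chromosome 3, had the same order of libraries, with 3.59 and 4.74 CPM in heterozygous siliques, against 14.7 and 14.6 CPM in the homozygous and 17.6 and 7.52 CPM in the wild-type ones. Its ratio was 3.27. Counts of PCC1 were not whole in 5 libraries and those of AT3G22235 in 6, so reads that fit both genes or another copy may have been divided between them, and the 2 may not be independent measurements.

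WAK1 and WAK2, wall-associated receptor kinases encoded side by side on chromosome 1, were high in the same 2 libraries. WAK1 was at 9.12 and 9.36 CPM in heterozygous siliques, against 14.5 and 34.2 CPM in the homozygous and 28.3 and 11.4 CPM in the wild-type ones. WAK2 was at 7.40 and 6.12 CPM in heterozygous siliques, against 10.9 and 23.7 CPM in the homozygous and 22.1 and 10.1 CPM in the wild-type ones. Homozygous replicate 2 and wild type replicate 1 were the highest libraries for both, and the ratios of 2.39 (WAK1) and 2.47 (WAK2) were 1.4 and 1.56 with the other 2 libraries alone. EP1, also listed as the cysteine-rich receptor-like kinase CRK9, had 7.36 and 6.12 CPM in heterozygous siliques, against 9.49 and 13 CPM in the homozygous and 13.6 and 7.58 CPM in the wild-type ones. Its ratio was 1.62, and 1.27 with the 2 libraries alone; the step from the higher heterozygous value to wild type replicate 2 was a factor of 1.03. MPK10, a mitogen-activated protein kinase, was at 8.31 and 5.88 CPM in heterozygous siliques, against 10.9 and 15.9 CPM in the homozygous and 17.9 and 9.49 CPM in the wild-type ones. The ratio of MPK10 was 1.91, and 1.44 with the 2 libraries alone.

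ELIP1, an early light-induced protein that binds chlorophyll in thylakoids under excess light, stood at 35.9 and 24.3 CPM in heterozygous siliques, against 80.5 and 57.9 CPM in the homozygous and 85.7 and 62.0 CPM in the wild-type ones. Its ratio of 2.38 was 2.37 with the 2 libraries alone, nearly the same value. GSTF2, a glutathione S-transferase, had 3.96 and 3.39 CPM in heterozygous siliques, against 6.63 and 13.5 CPM in the homozygous and 6.65 and 4.28 CPM in the wild-type ones. TI1, a trypsin inhibitor, had 4.74 and 4.2 CPM in heterozygous siliques, against 5.12 and 14.2 CPM in the homozygous and 5.52 and 6.20 CPM in the wild-type ones. Both were highest in homozygous replicate 2, and their ratios of 2.12 and 1.73 were 1.48 and 1.26 with the 2 libraries alone. ECS1 was among the most abundant of the 30, with 94.1 and 76.9 CPM in heterozygous siliques, against 137 and 181 CPM in the homozygous and 221 and 101 CPM in the wild-type ones. Its ratio was 1.87, and 1.39 with the 2 libraries alone. AT2G03770, annotated as a sulfotransferase, ranged from 3.68 to 4.88 CPM in heterozygous and from 5.52 to 7.35 CPM in the other libraries.

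Genes of wall, lipid and sugar metabolism had ratios of 1.5 to 1.77. GH9B17, a glycosyl hydrolase of the plant endoglucanase family, was at 3.90 and 4.32 CPM in heterozygous and 5.64 to 8.96 CPM in the other libraries, a ratio of 1.77. GXM2, a methyltransferase that modifies the side chains of xylan, was at 4.29 and 5.42 CPM against 6.43 to 10.7 CPM, a ratio of 1.6. MGDC (MGD3), a galactolipid synthase known to respond to phosphate starvation, was at 4.38 and 3.77 CPM against 4.45 to 8.04 CPM, a ratio of 1.53. For MGDC the lowest other library lay 1.02 times above the higher heterozygous value, so the groups barely separated. ADAP (WRINKLED 3), an AP2 transcription factor that activates genes of fatty acid synthesis, was nearly even across the other 4 libraries, at 5.67 and 6.0 CPM in homozygous and 5.54 and 5.85 CPM in wild type, against 3.88 and 3.39 CPM in heterozygous siliques. The ADAP ratio was 1.59 with or without the 2 libraries that stood apart. SUC1, a sucrose-proton symporter, had 34.7 and 23.5 CPM in heterozygous siliques, against 42.8 and 45.8 CPM in the homozygous and 51.1 and 35.1 CPM in the wild-type ones. Heterozygous replicate 1 and wild type replicate 2 of SUC1 differed by a factor of 1.01.

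The named genes also included ARP9, an actin-related protein, and SK16, a homologue of the SKP1 subunit of ubiquitin ligases. ARP9 was at 21.5 and 23.5 CPM in heterozygous siliques, against 35.6 and 41.2 CPM in the homozygous and 37.7 and 57.2 CPM in the wild-type ones. It was the only 1 of the 30 whose highest library was wild type replicate 2, and its ratio was 1.91, or 2.06 with the 2 libraries alone. SK16 was at 7.20 and 6.81 CPM in heterozygous siliques, against 9.43 and 9.90 CPM in the homozygous and 13.8 and 8.90 CPM in the wild-type ones.

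Of the 30 genes, 14 are listed by locus tag without a symbol. AT2G25510 had the largest ratio of all, 5.12, with 7.53 and 6.26 CPM in heterozygous siliques, against 29.3 and 44.0 CPM in the homozygous and 56.2 and 11.7 CPM in the wild-type ones. Wild type replicate 1 was the highest and replicate 2 the lowest of the other 4, and without wild type replicate 1 and homozygous replicate 2 the ratio was 2.97. AT5G39130 had the highest mean level, 161 CPM, and another order of libraries, with 103 and 52.8 CPM in heterozygous siliques, against 334 and 149 CPM in the homozygous and 133 and 192 CPM in the wild-type ones. Its ratio of 2.58 was 3.36 with the 2 libraries alone, and its counts were not whole in any of the 6 libraries, so reads may be shared with other genes. AT4G15040 was at 4.46 and 6.67 CPM in heterozygous and 6.76 to 14.8 CPM in the other libraries, a ratio of 2.09. AT5G25950 was at 7.95 and 7.25 CPM against 9.66 to 15.8 CPM, a ratio of 1.65. The 8 genes listed by locus tag and not named so far had ratios of 1.5 to 1.57, near the threshold. Among them AT1G61255 was at 38.6 and 49.9 CPM in heterozygous and 57.9 to 87.8 CPM in the other libraries, and AT2G02498 at 16.4 and 24.8 CPM against 25.5 to 44.4 CPM. AT3G48950 was at 9.09 and 8.84 CPM against 9.20 to 17.4 CPM, so its groups barely separated. AT5G02550 was at 4.41 and 6.84 CPM against 7.38 to 9.98 CPM, and AT1G74440 at 4.46 and 4.06 CPM against 5.83 to 7.31 CPM. AT5G46115 was at 4.35 and 5.85 CPM against 6.72 to 8.63 CPM. AT1G22120 and AT5G54220 are given further on, with homozygous against wild type and with the small RNA.

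**Figure D2:**
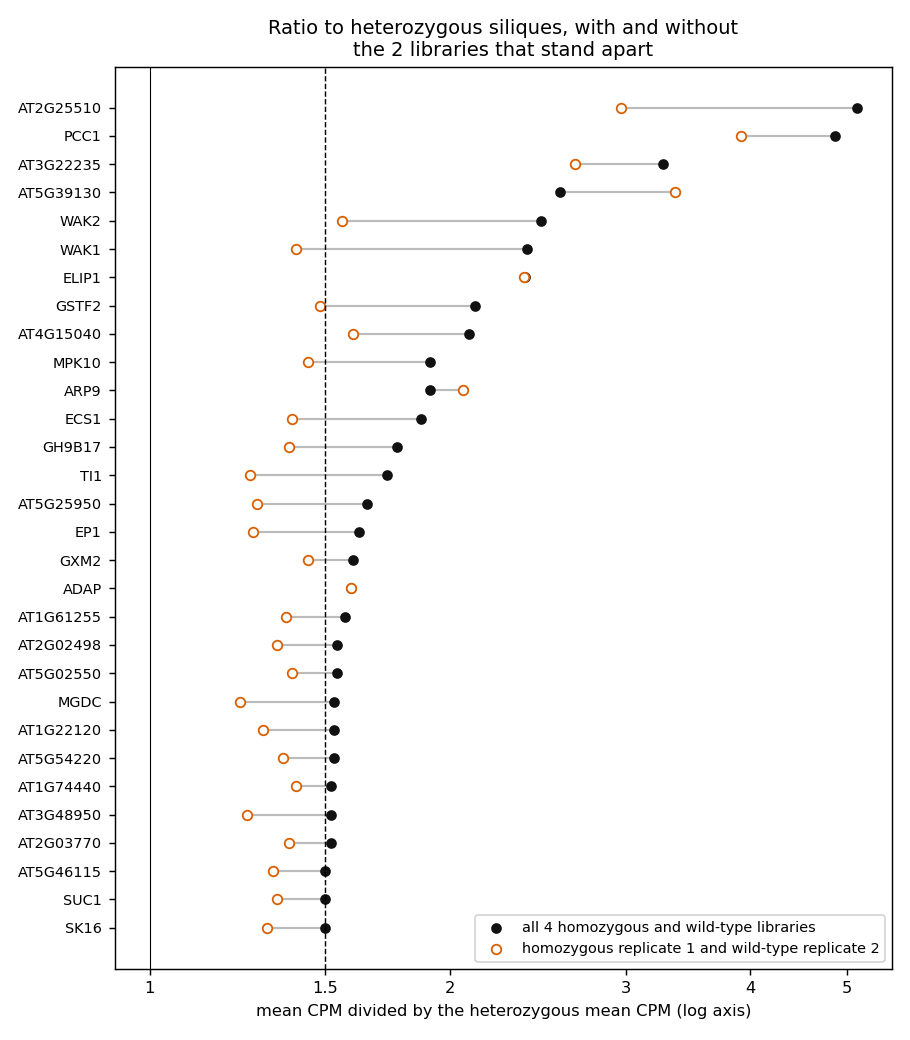
Ratio of mean CPM to the heterozygous mean for each of the 30 genes on a log axis, from all 4 homozygous and wild-type libraries (filled) and from homozygous replicate 1 and wild type replicate 2 alone (open); the dashed line marks 1.5. The open points of 9 genes lie at 1.5 or more, and the largest is PCC1 at 3.92.

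Just inside the ratio lay SK16 (1.5001), SUC1 (1.5015) and AT5G46115 (1.5033), and just outside it AT2G46600 (1.4944), AT5G62210 (1.4944) and AT5G50050 (1.4842). At the mean level, ADAP (5.056 CPM), AT5G54220 (5.214 CPM) and MGDC (5.523 CPM) were the nearest inside, and AT4G24910 (4.937 CPM) and MIR163 (4.752 CPM) were near on the outside. A mean under 10 CPM was found in 15 of the 30, against 17.3% of the 15970 genes. In 10 genes the exact 95% Poisson intervals of the highest heterozygous and the lowest other value did not overlap, and these were AT2G25510, PCC1, AT3G22235, AT5G39130, WAK2, ELIP1, ARP9, ECS1, ADAP and AT1G61255. In the other 20 the intervals overlapped, which by itself does not place the step within counting error. The intervals cover no other error. They were taken for the 30 alone, which the rule chose on this same separation, so nothing is read from the 10.

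Replicates of 1 genotype differed in the same sense for most of the 30. Homozygous replicate 2 lay above replicate 1 in 24 of the 30 and in 45.7% of the 15970 genes, and wild type replicate 1 above replicate 2 in 26 of the 30 and in 72.5%. Both held in 21 of the 30 and in 37.7% of the 15970. The median log2 ratio of wild type replicate 1 over replicate 2 was 0.63 over the 30 and 0.14 over the 15970, while that of heterozygous replicate 1 over replicate 2 was 0.11 and -0.07. The rule used these values, so the counts are description. The highest of the 6 values was in wild type replicate 1 for 18 genes, in homozygous replicate 2 for 10, and in homozygous replicate 1 and wild type replicate 2 for 1 each. The part of the 2 libraries that stand apart in the choice was measured by leaving them out. Without homozygous replicate 2 and wild type replicate 1 the rule took 27 genes, of which 8 were among the 30, namely AT2G25510, PCC1, AT3G22235, AT5G39130, WAK2, ELIP1, AT4G15040 and ARP9; this exclusion was chosen after the data were seen. With each library left out in turn, 13 of the 30 were kept every time.

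Homozygous against wild-type siliques sets side by side the 2 genotypes that the rule pools. The rule also used these 4 libraries, since each value had to lie above both heterozygous ones and their mean set the ratio, so a gene low in either genotype could not be taken. What the 30 genes show in this contrast is therefore partly fixed by their choice and is given as description, with no test. Over all 22702 tested genes edgeR's quasi-likelihood test called 0 (0%), with 1293 (5.70%) at an unadjusted p under 0.05, and DESeq2 called 76 (0.469% of those with an adjusted p). None of the 30 was among the calls of either tool, and nothing is read from this. AT2G02498 stood at 25.5 and 27.4 CPM in homozygous and 44.4 and 29.6 CPM in wild-type libraries, a fitted log2 difference of -0.56 ± 0.21 (SE). AT5G54220, at 3.63 and 4.09 CPM in heterozygous siliques, stood at 5.15 and 4.59 CPM with both copies mutant and 8.49 and 5.34 CPM in wild type, a log2 difference of -0.58 ± 0.24 (SE). In both genes the 2 homozygous values lay below the 2 wild-type values. Values of these genotypes lay apart, in either direction, in only these 2 of the 30 and in 36.2% of the 15970 genes. The largest difference was that of GSTF2, 0.81 ± 0.35 (SE), which was highest in homozygous replicate 2. For PCC1 it was 0.37 ± 0.40, for ELIP1 -0.17 ± 0.23, for WAK1 0.24 ± 0.45 and for WAK2 0.04 ± 0.41 (log2, SE). In the fit, with TMM scaling, 11 of the 30 lay higher and 19 lower in homozygous siliques, while on mean CPM 15 lay higher; over all tested genes 51.7% lay higher in the fit. The median log2 difference was -0.07 over the 30 and 0.01 over all tested genes. For scale, the median log2 CPM of the 30 in a library had an SD of 0.49 between replicates, pooled over homozygous and wild type.

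**Figure D3:**
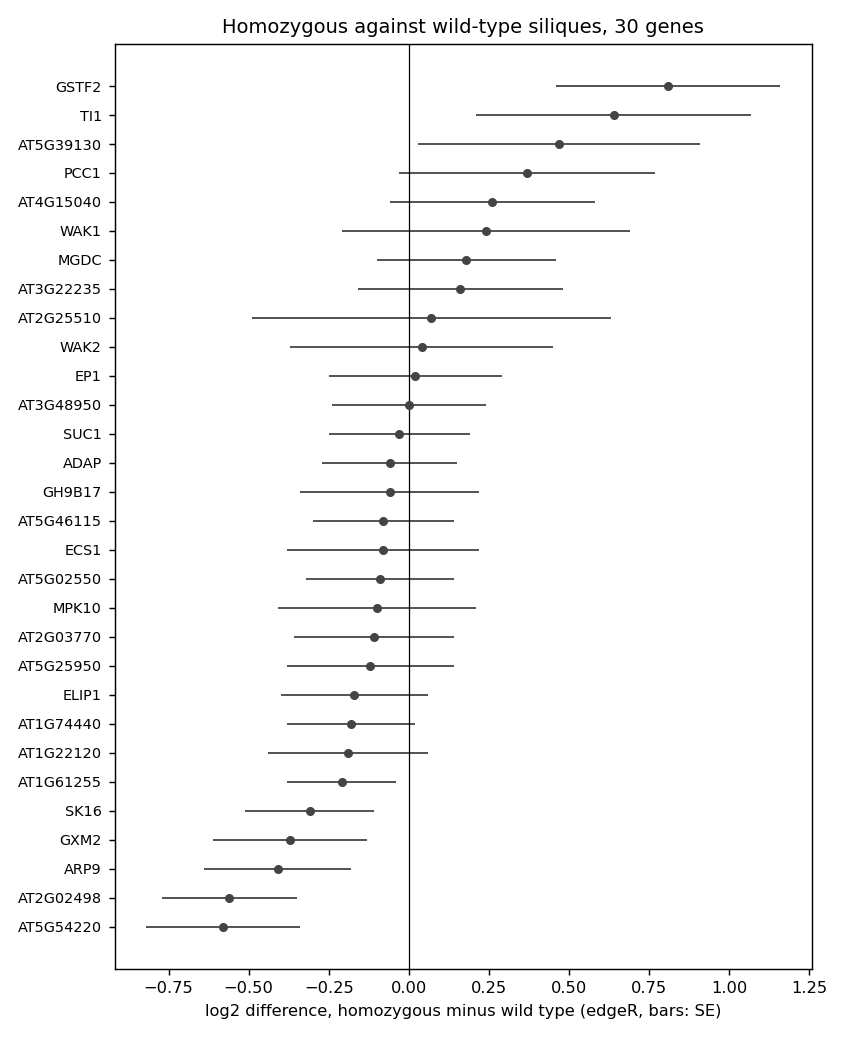
Log2 difference between homozygous and wild-type siliques for each of the 30 genes, from edgeR's fit over all 6 libraries, with bars of 1 SE. The differences run from -0.58 (AT5G54220) to 0.81 (GSTF2) on both sides of 0; the rule used these libraries too, so the plot is description.

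The contrasts with heterozygous siliques were used by the rule, and their calls are listed without any reading. edgeR called 0 of 22702 genes (0%) for heterozygous against wild type, for homozygous against heterozygous and for heterozygous against the mean of the others, with 1006 (4.43%), 745 (3.28%) and 670 (2.95%) at an unadjusted p under 0.05. DESeq2 called 17 genes (0.229%) for heterozygous against wild type, among them ELIP1, ARP9 and AT1G61255, and gave an adjusted p to only 6 of the 30. For homozygous against heterozygous it called 23 (0.112%), among them PCC1, AT3G22235 and ELIP1. These comparisons share the heterozygous libraries. The same rule turned to other genotypes took 25 genes highest in heterozygous siliques (0.157%), 135 lowest (0.845%) and 41 highest (0.257%) in homozygous, and 62 lowest (0.388%) and 26 highest (0.163%) in wild-type siliques. These counts depended on the scaling: with TMM they were 29 highest in heterozygous, 183 lowest and 23 highest in homozygous, and 32 lowest and 52 highest in wild-type siliques, so that for wild type the larger side turned. DESeq2 size factors gave 30, 182 and 22, and 33 and 51 in the same order.

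Genes of related pathways were followed in 23 lists, of which 310 genes met the mean of 5 CPM. Only PCC1, ELIP1 and MGDC of the 30 were in a list. Of the salicylic acid and pathogen response list just 6 genes met the mean. Both heterozygous values were the lowest for PCC1 and for NPR1, a receptor of salicylic acid, which stood at 17.7 and 18.1 CPM in heterozygous siliques, against 18.3 and 21.1 CPM in the homozygous and 25 and 19.6 CPM in the wild-type ones. With TMM scaling this held for PCC1 alone. The list had a median log2 of the 4-library mean over the heterozygous mean of 0.22, and -0.07 with homozygous replicate 1 and wild type replicate 2 alone, against 0.00 over all 15970 genes. In the flavonoid and anthocyanin list both heterozygous values were the lowest in 6 of 16 genes, against 4.36% of the 15970, and above all others in 1. The lists were chosen with earlier results of these data known, so this is description. Among the 16, PAP2 was matched by name to AT1G13900 and may be a gene of another function. The 6 were the enzyme genes TT4 (chalcone synthase), TT5, F3H, FLS1, DFR and LDOX. Their ratios ran from 1.16 (LDOX) to 1.31 (F3H), so none met 1.5. FLS1 barely separated, with 92.6 CPM in heterozygous replicate 2 and 93.3 CPM in homozygous replicate 2. F3H stood at 142 and 135 CPM in heterozygous siliques, against 174 and 194 CPM in the homozygous and 202 and 156 CPM in the wild-type ones. The count was 6 with TMM and with DESeq2 scaling, and 7 without structural RNA rows.

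The cold-regulated list had the highest list median, 0.27 over 12 genes. It was matched by name and held both AT1G15950 and AT4G39260 as CCR1, so it may include a gene of another function. In this list 0 of the 12 had both heterozygous values lowest. Of 7 early light-induced and photoprotection genes, ELIP1 alone did. The jasmonate list had 1 of 13, JAZ1, a repressor of jasmonate signalling. The phosphate starvation list had 1 of 10, MGDC itself, and the circadian clock list 2 of 19 (GI and FKF1), and 0 of 19 with TMM scaling. At the other end, seed storage and maturation genes had a median of -1.15 over 9 genes, and -0.60 with homozygous replicate 1 and wild type replicate 2 alone. In 0 of the 9 did both heterozygous values exceed the other 4. OLEO1, an oil body protein of seeds, stood at 23.1 and 97.0 CPM in heterozygous siliques, against 50.9 and 2.07 CPM in the homozygous and 3.94 and 15.3 CPM in the wild-type ones, so heterozygous replicate 1 lay below homozygous replicate 1, and the lowest values were in the 2 libraries that stood apart. Pollen genes had a median of -0.45 over 6 genes. Photosynthesis genes, at -0.02 over 23, and cytosolic ribosomal proteins, at 0.00 over 17, lay at the median of all genes.

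**Figure D4:**
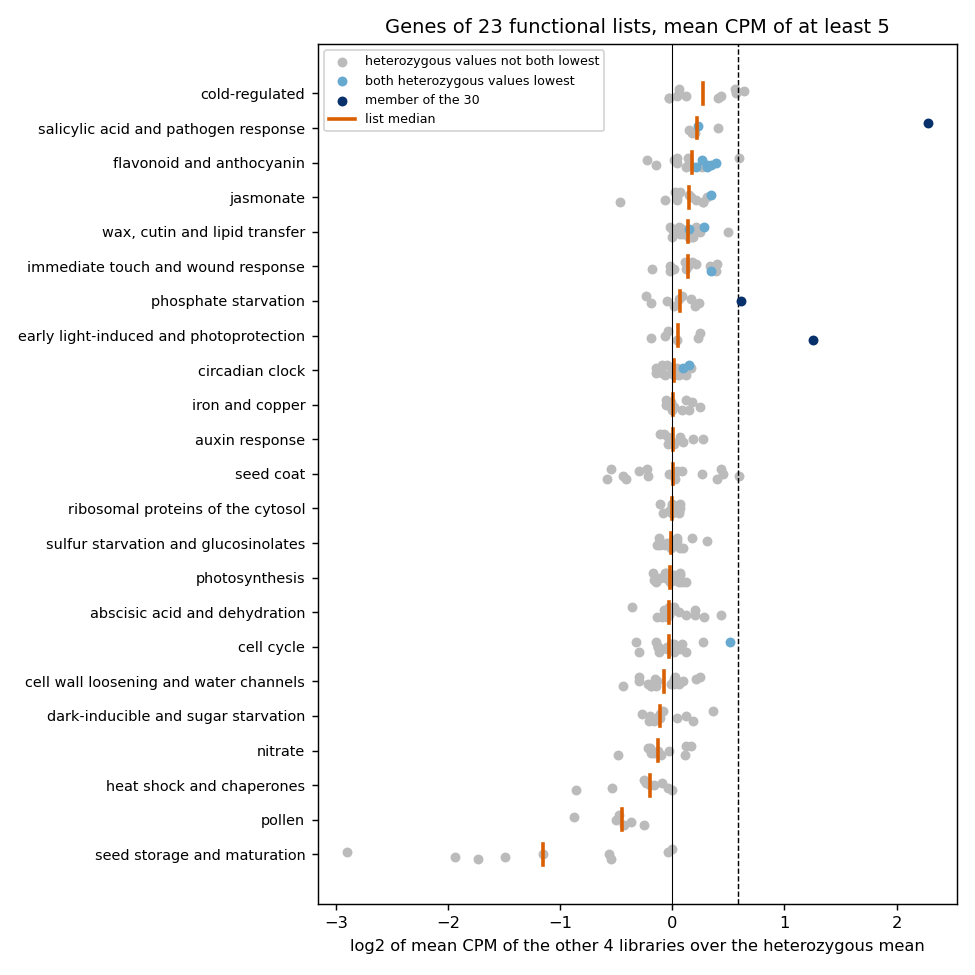
Log2 ratio of the 4-library mean to the heterozygous mean for genes with a mean of at least 5 CPM in 23 lists; orange bars are list medians and the dashed line marks a ratio of 1.5. PCC1, ELIP1 and MGDC (dark) are the members of the 30, and 6 of the 16 genes of the flavonoid list have both heterozygous values lowest (light blue) below that line.

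The 30 genes were all protein-coding and lay on all 5 chromosomes, with 8, 6, 5, 5 and 6 on chromosomes 1 to 5. Within 1000000 bp of AGO3 lay 1 of the 30. The share of all genes in that stretch was not taken, so nothing is read from this count. Their median annotated length was 1543 bp, against 2551 bp over the 15970 genes. PCC1 with AT3G22235, and WAK1 with WAK2, were neighbours. Of the 26 other adjacent genes that met the mean of 5 CPM, both heterozygous values were the lowest in 2, CRK10 beside EP1 (ratio 1.36) and AT2G03200 beside SK16 (ratio 1.18). AT3G22240, on the far side of AT3G22235, had a ratio of 0.954, and SUC5, beside SUC1, 0.841, so the low heterozygous level did not extend to those neighbours.

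Small RNA at the 30 genes is a measurement the rule did not use, with 1 library per condition and so no replicate check. Enrichment of a 500 bp window meant a minimum of 20 AGO3 reads and a value of RPM (reads scaled to 1000000 per library) plus 1 that reached 4 times the control value. Of the 30 genes, 1 overlapped such a window, against 0.936% of the 15919 genes of the same mean level that could be placed. That gene was AT1G22120, on chromosome 1, whose mRNA stood at 4.55 and 5.62 CPM in heterozygous siliques, against 5.73 and 9.21 CPM in the homozygous and 8.69 and 7.45 CPM in the wild-type ones. Over its 8 windows the gene held 63398 AGO3 reads, 12054 control reads and 21051 total small RNA reads, or 1705, 471 and 523 RPM. The AGO3 level was 3.62 times the control (exact binomial 95% interval 3.55 to 3.69, which covers counting error only). The window with the most AGO3 reads was chr1:7808501-7809000, which held 1202 RPM in the AGO3 immunoprecipitate, 190.2 RPM in the control and 368 RPM in total small RNA. The window before it, chr1:7808001-7808500, had a larger ratio of RPM, 17.6 (13.5 to 23.4), on 1432 and 56 reads. With 1 added to RPM that ratio was 12.4. The window after it, chr1:7809001-7809500, held the most control reads, 6943, with 15961 AGO3 reads and a ratio of 1.58 (1.54 to 1.63), under the threshold. The window after that, chr1:7809501-7810000, held 1218 AGO3 and 174 control reads and met the threshold again, with a ratio of RPM plus 1 of 4.33. These windows thus differed in their ratio to the control. Only AT1G22120, a protein-coding gene, was annotated in them.

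The other 29 genes held fewer AGO3 reads than AT1G22120. The median over the 30 was 24 AGO3, 37.5 control and 33.0 total reads per gene, against 39.0, 50 and 31.0 over the 15919 genes. ELIP1 held 328 AGO3 and 87 control reads, a ratio of 2.60 (2.04 to 3.33). PCC1 held 37 and 6 reads, a ratio of 4.25 (1.78 to 12.3) and no window of it was called, the largest window ratio of RPM plus 1 being 1.86. ARP9, with 1058 and 1243 reads, and MGDC, with 449 and 683, lay below the control at 0.586 and 0.453. WAK1 and WAK2 were also below it, at 0.337 and 0.390. The median ratio of RPM plus 1 was 0.882 over the 30 genes and 0.743 over the 15919. Adding 1 draws ratios of low read counts toward 1, and the 30 held fewer AGO3 and control reads, so nothing is read from these medians. The ratios of single genes in this paragraph are of RPM without the added 1, unless stated.

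**Figure D5:**
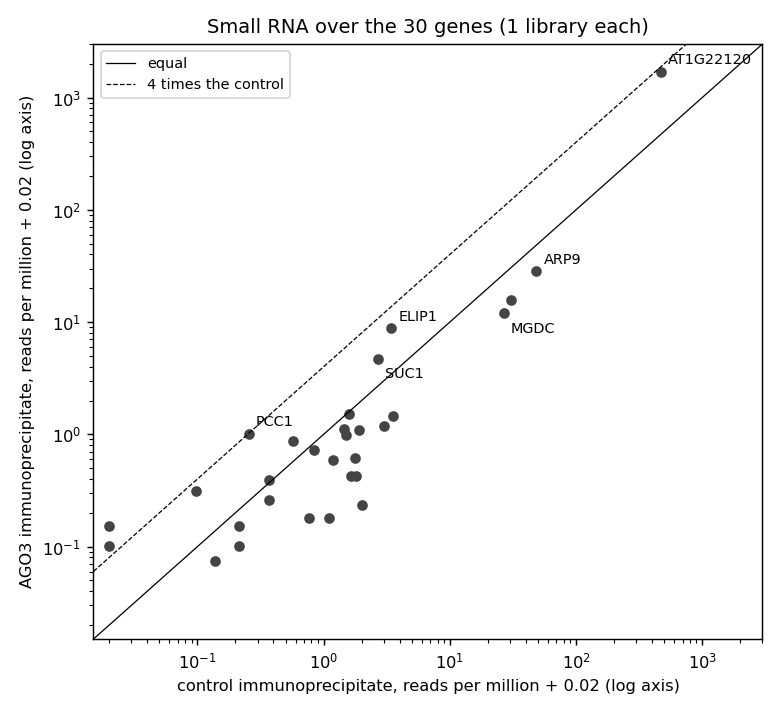
Small RNA level (RPM) over each of the 30 genes in the AGO3 immunoprecipitate against the control, 1 library each, on log axes with 0.02 added; the solid line marks equal levels and the dashed line 4 times the control. AT1G22120 stands apart at 1705 and 471 RPM, and 25 of the 30 lie under 5 RPM in both.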

How the data were processed

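Siliques of Arabidopsis thaliana were profiled by mRNA and small RNA sequencing. The authors' mRNA table holds estimated counts per gene, deposited without scaling to depth, of which 7.88% of values are not whole numbers. HISAT2, featureCounts and TAIR10 stand in the submitters' processing notes; the sources used here give no versions, settings or strand, so reads of near-identical, overlapping or antisense genes may have been divided between rows. The deposited small RNA table holds whole read counts per 500 bp window; the submitters' processing notes name Bowtie.

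CPM was taken of the column total, the rule was applied to the unrounded values, and the members and gene lists were chosen with earlier results of these data known. List genes were matched to loci by symbol or synonym, so a list may hold a gene of another function that shares a name. For tests, estimated counts were rounded and tested by quasi-likelihood in edgeR 4.0.16 under R 4.3.3 on all 6 mRNA libraries, with TMM scaling, edgeR's expression filter (22702 of 34262 rows), 3 residual degrees of freedom and Benjamini-Hochberg adjusted p-values, called under 0.05; the biological coefficient of variation was 0.185; DESeq2 1.42.0 was the alternative. The fitting script was tested on simulated data. Total counts ran from 30338416 to 36258980 per library, at which 3 counts are 0.0827 to 0.0989 CPM. Same-numbered replicates were not paired in the labels. A gene table of assembly TAIR10.1 gave symbols and neighbours and placed genes on the small RNA windows, whose TAIR10 coordinates are printed counted from 1; 326 miRNA genes had a median of 278 total small RNA reads at their own windows and 3.00 when moved by 5000 bp. Genes were to be named by size of ratio, level, list membership, calls and small RNA; as only 30 met the rule, all are named. No sequence of these genes was used here, so promoter motifs were not searched. Other steps ran in Python 3.11.15 with scipy 1.17.1.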

Additional observations from a re-analysis of the deposited data

How the results depend on the processing

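The number of genes that met the rule was 30, and 31 with TMM, 30 with DESeq2 and 28 without structural RNA rows, of which 28, 28 and 27 were among the 30; SUC1 and SK16 were lost under all 3. It was 28 with geometric means and 24 with medians. It depended on the thresholds, at 64 with a mean of 2 CPM, 15 with 10 CPM, 179 with the lower ratio tried and 9 with a ratio of 2, and on the libraries, at 22 (without wild type replicate 1) to 158 (without heterozygous replicate 2) with 1 library left out; leaving out heterozygous replicate 1 gave 97, wild type replicate 2 gave 78 and homozygous replicate 1 gave 56. For homozygous against wild type, edgeR called 0 genes as reported, 4 without the expression filter, 0 to 3 with 1 library left out (3 without wild type replicate 2), 54 with both libraries that stood apart (homozygous replicate 2, wild type replicate 1) left out, and DESeq2 called 76; none of the 30 was called in any of these, and their median log2 difference ran from -0.28 to 0.18 with 1 library left out. With both libraries that stood apart left out, 1 homozygous and 1 wild-type library remained. Only the heterozygous siliques then had replicates, so nothing is read from the number of calls in that fit. Each fit with 1 library left out had 1 genotype without replicates, and its number of calls is not read either. With the replicate number as a block on all 6 libraries, edgeR called 0. Same-numbered deviations correlated at -0.527 between homozygous and wild type. Crossed numbers, added after the data were seen, gave 136 calls. That fit held only the 4 homozygous and wild-type libraries, on which edgeR without a block called 0. The 2 block fits thus differ in their libraries as well as in the numbering. With a window ratio of 2, 2 of the 30 had an enriched window, against 3.56% of the 15919 genes, and with total small RNA as the base 2, against 1.92%. Promoter motifs were not run.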

Other observations

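A further 17 genes met the mean of 5 CPM and the ratio of 1.5 but had 1 of the 4 homozygous and wild-type libraries at or below a heterozygous value, which was wild type replicate 2 in 10 of them. The 3 with the largest ratios were AT5G42530, DMR6 and AT1G06000. DMR6, an oxygenase that hydroxylates salicylic acid, stood at 8.37 and 13.6 CPM in heterozygous siliques, against 19.3 and 33.5 CPM in the homozygous and 28.9 and 8.83 CPM in the wild-type ones, a ratio of 2.06. AT5G42530 stood at 5.35 and 8.87 CPM in heterozygous siliques, against 18.6 and 41.8 CPM in the homozygous and 55.4 and 6.36 CPM in the wild-type ones, a ratio of 4.30. AT1G06000 stood at 10.9 and 20.9 CPM in heterozygous siliques, against 33.7 and 34.7 CPM in the homozygous and 39.0 and 18.5 CPM in the wild-type ones, a ratio of 1.98. In all 3 genes, wild type replicate 2 lay inside the heterozygous range while replicate 1 was among the highest libraries.

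Under the mean of 5 CPM, 372 genes met the other 2 conditions. One of them was MIR163, a miRNA gene, at 3.79 and 2.72 CPM in heterozygous siliques, against 6.32 and 6.63 CPM in the homozygous and 4.33 and 4.71 CPM in the wild-type ones. Another row of the table holds identical values.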
